A study of Mus musculus with 3 samples.

Results

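The carbonic anhydrases described here are 10 genes, Car1, Car2, Car3, Car4, Car6, Car8, Car9, Car12, Car13 and Car14, chosen by name as all non-control probes that carry one of these gene names. They had 13 of the 41174 probes, and 10 of the 27670 gene names, on the array. The tissue was the utero-tubular junction, the narrow passage from uterus to oviduct, of adult CD-1 mouse females. The study compared 3 groups, all in estrus: females mated with a normal male, females mated with a vasectomized male, whose ejaculate lacks sperm, and females that had not mated. Each group was 1 pool of total RNA from 10 females on 1 single-colour Agilent array, so there is no replicate, no p-value and no error between animals. How long after mating the tissue was taken is not stated in the labels.

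Carbonic anhydrases catalyse the reversible hydration of carbon dioxide to bicarbonate and a proton. In the female tract they are known for their part in setting the pH and the bicarbonate of the luminal fluid, and bicarbonate activates sperm during capacitation. The family is divided by where the enzyme sits. Car1, Car2, Car3 and Car13 are cytosolic, Car4 is held on the outer face of the membrane by a lipid anchor, and Car9, Car12 and Car14 span the membrane with the catalytic part outside. Car6 is secreted, and Car8 is a related cytosolic protein without catalytic activity. Car9 is a classic target of the hypoxia-inducible factors (HIFs), and the human CA9 promoter is known to carry a HIF site just before its start.

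The promoters are shown first, because Car9 is set against the other members below. The RefSeq promoter table of mouse build GRCm38.p6 held 5 of the 10 genes: Car4, Car6, Car9, Car12 and Car14. The 250 bases before each start were searched on both strands for the HIF core motifs ACGTG and GCGTG, and matches were found in 3 of the 5. Each line gives 120 bases, 5′ to 3′ on the strand of the gene, and capitals mark the matches, here always ACGTG or its reverse complement CACGT. Car9 and Car14 are shown because their match is also one to the longer TACGTG, Car6 because its match reads as ACGTG on both strands, and Car4 because it had no match and gave the opposite reading to Car9 on the arrays.
Car9, chr4:43506906-43507025, plus strand, up to the base before the start: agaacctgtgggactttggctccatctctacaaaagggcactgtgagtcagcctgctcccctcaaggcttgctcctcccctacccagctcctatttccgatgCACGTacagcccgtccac
Car14, chr3:95904686-95904805, minus strand, up to the base before the start: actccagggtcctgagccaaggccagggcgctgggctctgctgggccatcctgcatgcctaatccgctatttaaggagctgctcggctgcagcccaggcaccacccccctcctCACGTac
Car6, chr4:150201196-150201315, minus strand, from 180 to 61 bases before the start: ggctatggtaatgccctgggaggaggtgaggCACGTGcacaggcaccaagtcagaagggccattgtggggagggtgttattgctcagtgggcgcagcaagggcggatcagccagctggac
Car4, chr11:84957634-84957753, plus strand, up to the base before the start: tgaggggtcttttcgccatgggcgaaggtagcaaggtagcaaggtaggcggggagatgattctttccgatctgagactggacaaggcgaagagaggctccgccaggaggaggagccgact

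The match of Car9 lay 18 to 14 bases before the start and that of Car14 lay 7 to 3 bases before it, both on the strand opposite to the gene. Of 32851 promoter windows of the same length, 16.6% held ACGTG, 28.2% held GCGTG, 38.6% held either, and 2.72% held TACGTG. A match is a description of the letters, and Car14, with the same longer match as Car9, did not share its pattern on the arrays.

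Signals are the deposited processed intensities, and levels are log2 of the signal over the 75th percentile of the array. Ratios are differences of these levels, and a gene counts as different at 2-fold, a log2 ratio of 1. Where 1 of the 2 arrays was not well above background, as the scanning software marks it, the ratio is a bound, written "at least". Bounds use the dimmest probe well above background on that array, or the probe's own value where that is higher. For a gene with several probes the brightest probe is used. The 75th percentile signal was 709.4 for normal-mated, 295.3 for vasectomized-mated and 875.8 for not mated females, so the vasectomized-mated array was the dimmest. In not mated females all 8 oviduct epithelial markers and all 7 measured uterine epithelial markers, among them Ovgp1 and Prss29, were detected above background, and no spot was saturated. Spots of the same probe differed little, with a median SD of 0.0527 to 0.0637 log2 within an array. Different probes of 1 gene differed more. Their log2 ratios spread over a median of 0.33 for normal mated versus not mated, but over 1.04 for vasectomized mated versus not mated and 1.00 for normal versus vasectomized mated. Single-gene values that involve the vasectomized-mated array are therefore less certain. Markers of another cell type differed too, as all 9 neutrophil markers compared were at least 2-fold higher after each mating. Of all genes, 9.83% were higher after normal and 25.8% after vasectomized mating. In each comparison 5 of the 9 ratios were measured and the rest were bounds. The other probe of the marker Mmp9 gave 0.43 after normal and 0.13 after vasectomized mating. The summed level of the list was 61.1 in normal-mated, 87.1 in vasectomized-mated and 0.382 in not mated females, in units of the 75th percentile. Most of it after each mating came from S100a9. The part of neutrophils in any value below was not tested.

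Car4 was below the detection mark after either mating, and the other 9 members were detected on every array. By probe, 11 of 13 were above background in normal-mated, 9 in vasectomized-mated and 13 in not mated females. Of all non-control spots, 70.7%, 65.9% and 68% were well above background on these arrays, in the same order. After normal mating, Car9, Car2, Car6 and Car13 exceeded their not mated values by 2-fold or more, and Car4 and Car8 were lower by 2-fold or more. These are 4 of 10 members higher, where 9.83% of the 19306 genes compared were at least 2-fold higher, and 2 of 10 lower, where 13.2% of genes were lower. After vasectomized mating, Car6, Car9, Car13 and Car14 were at least 2-fold higher and Car4 and Car3 lower. That is again 4 of 10 and 2 of 10, but beside backgrounds of 25.8% higher and 16.5% lower among 19312 genes. The median log2 ratio of the members was 0.47 after normal mating, against -0.05 for all genes, and 0.77 after vasectomized mating, against 0.18 for all genes. Both comparisons share the not mated array. With so few genes, these shares describe the 10 members and are no test. With spike-in scaling, described under Car9, 9 of the 10 members were below 0 after vasectomized mating, all but Car6. Of all genes, 16367 of 18685 were then at least 2-fold lower in that comparison. The shares of all genes given here also stand beside the list counts below.

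**Figure D1:**
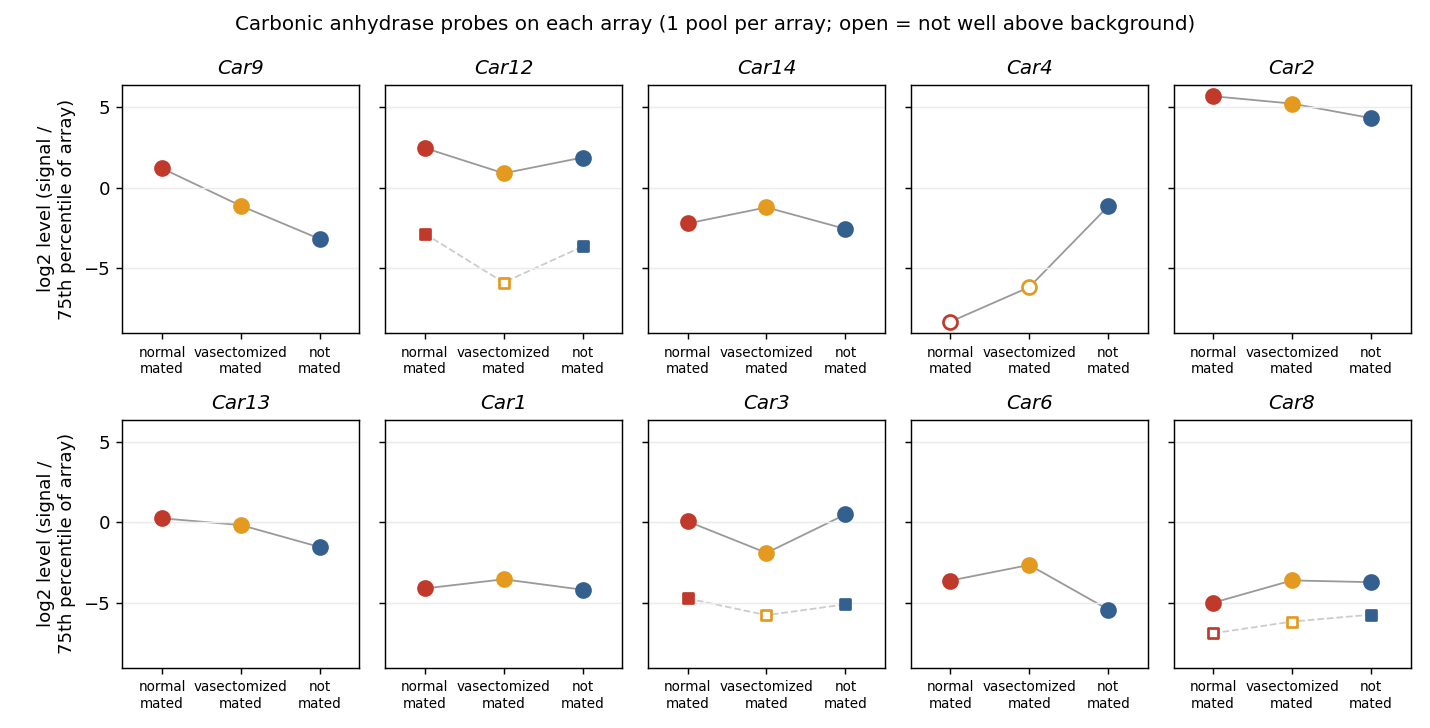
Level of every carbonic anhydrase probe (y axis, log2 of signal over the 75th percentile of the array) on the normal-mated, vasectomized-mated and not mated arrays, with circles for the probe used and squares for a gene's other probe. Open symbols were not well above background, and Car4 is filled on the not mated array alone.

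Among the membrane-spanning enzymes, Car9 had by far the largest difference. Its signal was 1645 in normal-mated females, 135 in vasectomized-mated females and 95.7 in females that had not mated, with errors of 165, 13.6 and 10.1 estimated for each spot by the scanning software. As levels these are 1.21, -1.13 and -3.19 log2. The normal-mated array was highest, the vasectomized-mated array lay between, and the not mated array was lowest. The probe lies at chr4:43526965-43527024 on the mm7 build named in the file headers, and it is the gene's only probe, so no second probe checks it.

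Car9 was 21.2-fold higher in normal-mated than in not mated females, a log2 ratio of 4.41, and 68 of the 19306 genes compared had a larger ratio. In vasectomized-mated against not mated females it was 4.19-fold higher (2.07), and there 1519 genes, or 7.87%, had a larger ratio. Normal mating therefore gave the more unusual value. Set against each other, normal-mated females were 5.07-fold above vasectomized-mated females (2.34), a ratio exceeded by 1.61% of 18990 genes. In the same comparison 8 of 10 epithelial markers passed 2-fold higher and 0 lower (median 1.51), as did 6 of 7 uterine gland and luminal markers, with 0 lower (median 2.21). Of all genes, 14.7% were higher and 28% lower there. The part of epithelial cells in the values of Car9 and of Car12 was not tested. The ratio after vasectomized mating depended on the scaling of the arrays. Scaled to the E1A spike-in probes, an alternative chosen after seeing the data, it was -0.57. The median of all genes also moved to -2.52 under that scaling, so that Car9 lay 1.95 above the median, close to the 1.89 of the percentile scaling.

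Car12, a membrane-spanning enzyme of many secretory epithelia, had signals of 3933 in normal-mated, 551 in vasectomized-mated and 3220 in not mated females. Relative to the 75th percentile, it was 1.51-fold higher after normal mating (log2 ratio 0.59), within 2-fold, and 1.97-fold lower after vasectomized mating (-0.98), just within 2-fold. Between normal- and vasectomized-mated females it was 2.97-fold higher (1.57). Its other probe, whose mm7 position covers 9455 bases of the genome, gave 0.79 after normal mating. That probe was not well above background after vasectomized mating, with a signal of 5, against 69.8 in not mated females. Both probes were thus lowest on the vasectomized-mated array. Of the 10 settings, 5 put Car12 past 2-fold lower there, and the main setting was not among these.

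Car14, also membrane-spanning, had signals of 152 in normal-mated, 126 in vasectomized-mated and 148 in not mated females. Its log2 ratio was 0.34 after normal mating and 1.34 after vasectomized mating, 2.53-fold higher. The raw signals hardly differ, so the second ratio rests on the scaling, and with spike-in scaling it was -1.29, still 1.23 above the median of all genes. In normal- against vasectomized-mated females Car14 was 1.99-fold lower, at the edge of the 2-fold threshold but within it. Over the planned settings the smallest difference was -0.88 log2, and none was clearly larger than the main one. With spike-in scaling the log2 ratio was 1.17, in the other direction. Relative to the median of all genes it was then -0.72, close to the -0.73 of the percentile scaling.

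Car4, the lipid-anchored enzyme, was the reverse of Car9. Its signal was 2.2 in normal-mated and 4.06 in vasectomized-mated females, neither well above background, against 393 in females that had not mated. It was thus measured on the not mated array alone, and its level after either mating is known only as a bound. It was at least 48.3-fold lower after normal mating and at least 22.8-fold lower after vasectomized mating. The smaller second bound follows the dimmer array. No ratio between the matings can be given. With normexp background correction, which lifts dim values, the bounds were -2.46 and -1.37 log2, still past 2-fold. Its single probe lies at chr11:85034716-85034775 on mm7.

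In other tissues Car4 is known from capillary endothelium and from some epithelia, so markers of these cells are given beside it. In a pooled tissue, fewer cells of a type and less RNA per cell cannot be told apart. After normal mating 9 of 12 endothelial markers were lower by 2-fold or more (median -1.78, lowest -2.23). Vasectomized mating gave 6 lower and 1 higher (median -0.74, lowest -2.34), and all 12 were above background on every array. The higher one was Cdh5, a junction protein of endothelium, at 2.44 by its brightest probe and at -2.67 by its other probe. Their summed level, in units of the 75th percentile, was 16.6 in normal-mated, 47.2 in vasectomized-mated and 41.3 in not mated females. Of 5 capillary markers none was lower after either mating, and 4 were higher after vasectomized mating. Of all genes, 9.83% were higher and 13.2% lower after normal mating, and 25.8% and 16.5% after vasectomized mating. The bounds of Car4 were -5.60 log2 after normal and -4.51 after vasectomized mating, or -2.46 and -1.37 with normexp correction. Among 10 epithelial markers, 6 passed 2-fold higher after normal mating, and 1 passed higher and 2 lower after vasectomized mating. Of 7 uterine gland and luminal markers, 5 were higher and 2 lower after normal mating (median 1.65), and 2 were higher and 3 lower after vasectomized mating (median -0.73). Among the lower ones, Prss28, a protease of uterine glands, was at -9.26 after normal mating and at a bound of -11.47 after vasectomized mating. Prss29, a related gland protease, was at -4.54 after normal and -6.05 after vasectomized mating. The part of these cells in the value of Car4 was not tested.

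**Figure D2:**
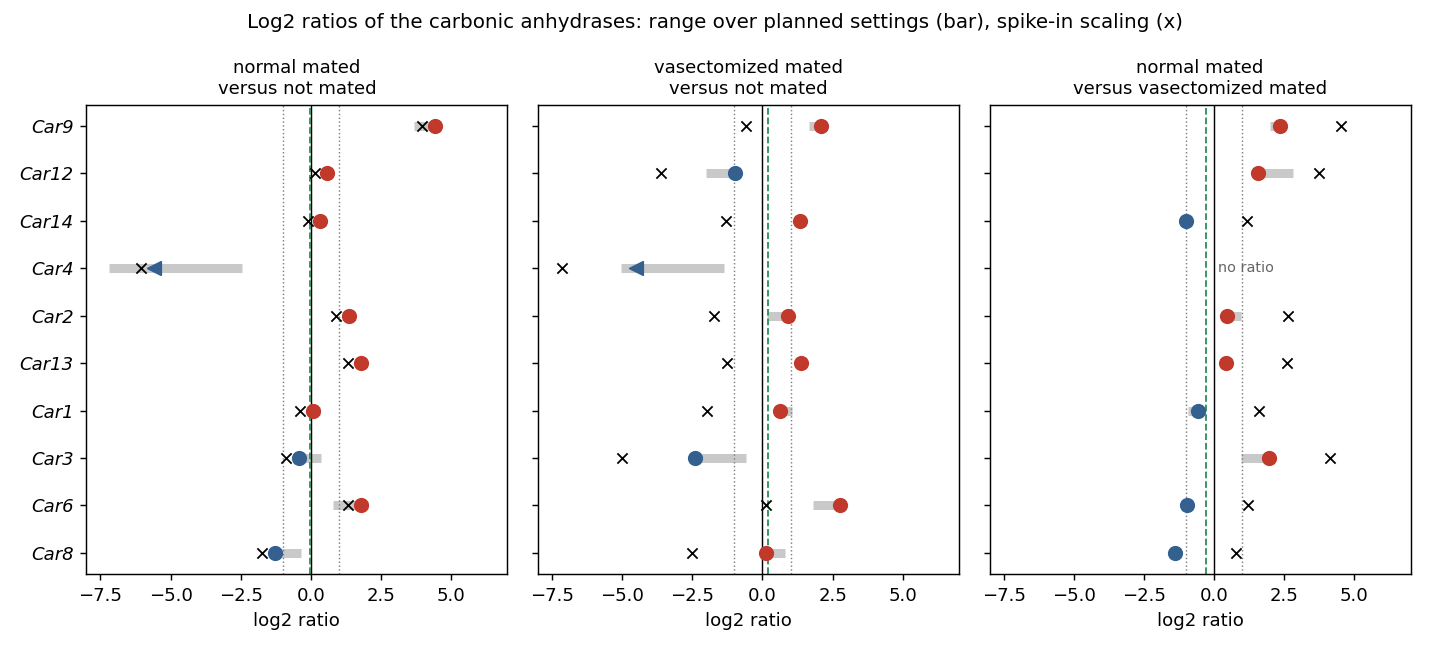
Log2 ratios of the 10 members in the 3 comparisons (x axis), with circles for measured ratios, triangles for bounds, grey bars for the range over the planned settings, and crosses for spike-in scaling. Dotted lines mark 2-fold and the green dashed line the median of all genes. Car9 lies furthest right in the first panel, and the crosses lie far from the circles in both panels that involve the vasectomized-mated array.

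The cytosolic genes Car13, Car1, Car3 and Car2 are neighbours in that order on chromosome 3, with no other protein-coding gene between them in the RefSeq gene table. They did not move as a block. Car2, the fast and widely expressed cytosolic enzyme, had the strongest signals of the 13 probes, 36563 in normal-mated, 11074 in vasectomized-mated and 17629 in not mated females. Its log2 ratio was 1.36 after normal mating, 2.56-fold higher, and 0.90 after vasectomized mating, within 2-fold. With spike-in scaling Car2 was at 0.89 after normal mating, within 2-fold, and at -1.74 after vasectomized mating, in the other direction. Relative to the median of all genes these were 1.42 and 0.78, close to the 1.41 and 0.72 of the percentile scaling. Quantile normalization gave 0.15 after vasectomized mating.

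Car13 had signals of 849 in normal-mated, 264 in vasectomized-mated and 303 in not mated females. It was 3.45-fold higher after normal mating (1.79) and 2.58-fold higher after vasectomized mating (1.37). The ratio after vasectomized mating was -1.26 with spike-in scaling, still 1.26 above the median of all genes. Car13 was ahead of Car2 by 0.43 log2 after normal mating and by 0.47 after vasectomized mating. Over all settings this lead ran from 0.28 to 0.80 after normal and from 0.47 to 1.32 after vasectomized mating. In normal- against vasectomized-mated females Car13 was at 0.42 and Car2 at 0.46, both within 2-fold, but at 2.59 and 2.62 with spike-in scaling. Relative to the median of all genes the latter were 0.70 and 0.73, close to the 0.69 and 0.73 of the percentile scaling.

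Car1, an abundant enzyme of red blood cells, was dim, with signals of 41.3 in normal-mated, 25.5 in vasectomized-mated and 48.5 in not mated females. Its log2 ratio of 0.07 after normal mating was smaller than the usual spread between probes of 1 gene, and so was its 0.64 after vasectomized mating. Of the 5 red blood cell markers that could be compared, none differed by 2-fold after normal mating. After vasectomized mating 1 was higher (Hbb-bt, a beta globin, 2.51, with probes from 0.98) and 1 lower (Sptb, a spectrin, -2.40, with probes up to -0.36). The summed level of the list, most of it from Hbb-bt in each group, was 99.8 in normal-mated, 291 in vasectomized-mated and 72.6 in not mated females. Of its 10 genes on the array, 6 were above background in normal-mated females and 5 in each other group. The membrane marker Slc4a1 was above background on every array, and Epb42 and Rhag on none. The part of red blood cells in the value of Car1 was not tested.

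Car3, a cytosolic form of low activity that is abundant in skeletal muscle and fat, had signals of 747 in normal-mated, 79.5 in vasectomized-mated and 1237 in not mated females. The vasectomized-mated array stood apart from the others. Car3 was 5.25-fold lower there than in not mated females (-2.39), with 2.17% of genes lower, and its ratio after normal mating was -0.42. The second Car3 probe was dimmer, with 26.9 in normal-mated, 5.44 in vasectomized-mated and 25.7 in not mated females. It gave 0.37 after normal mating, so the probes disagreed in sign there, and it was not well above background after vasectomized mating, where it gave a bound of -0.58. Of 7 adipocyte markers, 3 were lower and 1 higher after vasectomized mating (median -0.96), beside 16.5% and 25.8% of all genes. After normal mating 0 were lower and 1 higher (median -0.17). The higher one was Fabp4 (1.34) after vasectomized mating and Pparg (1.81) after normal mating. Of 9 skeletal muscle markers, 1 was higher and 0 lower after vasectomized mating (median 0.36). The summed level of the adipocyte list was 24.3 in normal-mated, 24.2 in vasectomized-mated and 22.9 in not mated females. That of the muscle list was 6.12, 29 and 8.33 in the same groups, with most of the 29 from Tnni2, the 1 higher marker (2.61). The part of fat and muscle cells in the value of Car3 was not tested.

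Car6, the secreted enzyme of saliva, had signals of 58.2 in normal-mated, 47.3 in vasectomized-mated and 20.7 in not mated females. It was 3.48-fold higher after normal mating (1.80) and 6.79-fold higher after vasectomized mating (2.76), the highest ratio of the 10 members in that comparison. These are dim signals, and with normexp background correction the ratio after normal mating was 0.80, within 2-fold. With spike-in scaling the ratio after vasectomized mating was 0.13, still 2.65 above the median of all genes. In normal- against vasectomized-mated females Car6 was at -0.96, within 2-fold, and at 1.20 with spike-in scaling. Relative to the median of all genes, both of these values were -0.69.

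Car8, which binds the receptor for inositol trisphosphate on calcium stores, had signals of 22.3 in normal-mated, 24.3 in vasectomized-mated and 66.8 in not mated females. It was 2.43-fold lower after normal mating (-1.28), while its ratio after vasectomized mating was 0.11. Its dimmer probe gave a bound of -1.02 after normal mating, in the same direction. With normexp correction the first ratio was -0.36, within 2-fold. In normal- against vasectomized-mated females Car8 was 2.62-fold lower (-1.39), the one member at least 2-fold lower there. With spike-in scaling it was at 0.78, while the median of all genes was 1.89. Relative to that median Car8 was at -1.11, close to the -1.12 of the percentile scaling. Car9, Car3 and Car12 were the 3 of 9 members at least 2-fold higher in that comparison, where 14.7% of genes were higher and 28% lower.

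Differences between 2 members within a comparison do not depend on how arrays are scaled by a constant. After normal mating, the log2 ratio of Car9 exceeded that of Car4 by at least 10.00, that of Car2 by 3.05, that of Car13 by 2.62, that of Car1 by 4.33 and that of Car3 by 4.83. It was above every other member in each setting that gave a value. After vasectomized mating the lead over Car4 was at least 6.58 and that over Car2 1.17, but over Car13 and Car14 0.70 and 0.73, and Car6 was ahead of Car9 by a difference of -0.70. Those last 3 values are smaller than the median spread of 1.04 between probes of 1 gene. In normal- against vasectomized-mated females Car9 lay above Car2 by 1.88 and above Car13 by 1.92, but above Car3 by 0.37. The separation of Car9 from the cytosolic Car2 and Car13 was thus larger after normal mating, although these values all share arrays.

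**Figure D3:**
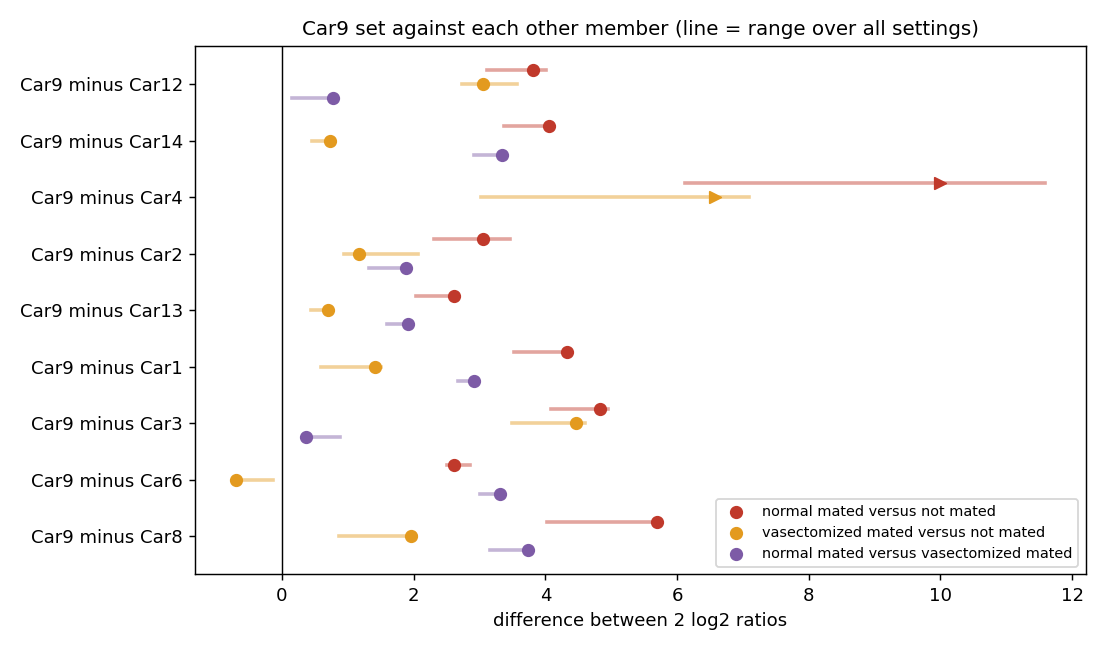
Difference between the log2 ratio of Car9 and that of each other member (x axis) in the 3 comparisons, with lines for the range over all settings and triangles for bounds. After normal mating all 9 differences are above 0, and after vasectomized mating the difference from Car6 is below 0.

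Likeness to Car9 was measured as the Euclidean distance between log2 levels centred over the 3 arrays, among 13765 genes well above background on all 3. The nearest genes were Slc26a9, an anion transporter, at a distance of 0.20, Sprr2g, a small proline-rich protein of epithelia, at 0.45, and Slc26a1, a sulfate and anion transporter, at 0.45. These were the 3 genes within 0.5. Slc26a9 had log2 ratios of 4.17 after normal mating and 1.82 after vasectomized mating. So few arrays fix little, and the distance describes them alone. For Car4 no such search was made, since it was above background on 1 array.

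Of the 6 other carbonic anhydrase family genes on the array, the mitochondrial Car5a and the related protein Car10 were not above background on any array. Of the 4 compared, the mitochondrial Car5b (1.19, but 0.02 by its other probe) and the cytosolic Car7 (1.14) passed 2-fold higher after normal mating, and 0 were lower. With spike-in scaling 0 were higher and 1 was lower. Car15, a lipid-anchored form in mouse, was at 0.83 and Car11, a related protein without catalytic activity, at -0.81. After vasectomized mating none of the 4 differed by 2-fold, with log2 ratios from -0.58 to -0.13. All 4 were lower with spike-in scaling, as were 16367 of 18685 genes.

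Because Car9 is linked to hypoxia, a list of 32 HIF target and glycolysis genes was set beside it. After normal mating 23 passed 2-fold higher and 0 lower (median 1.43), beside 9.83% and 13.2% of all genes. With spike-in scaling 14 were higher and 1 lower, beside 1107 and 5104 of 18974 genes. After vasectomized mating 19 were higher and 4 lower (median 1.20), beside 25.8% and 16.5% of all genes. With spike-in scaling 4 were higher and 20 lower, beside 233 and 16367 of 18685 genes. Car9, at 4.41, lay above all but Egln3, a prolyl hydroxylase that marks HIF proteins for breakdown (6.50), and Slc16a3, a lactate exporter (4.62), after normal mating. After vasectomized mating Car9, at 2.07, lay among the rest. Egln3 was at 4.83 there, Slc16a3 at 4.36 and Ankrd37, a HIF target of the ankyrin repeat family, at 4.29. In normal- against vasectomized-mated females Car9 was at 2.34. Egln3 was at 1.67, Slc16a3 at 0.26, Ankrd37 at -1.07 and Hk2, a hexokinase, at -0.56. The glycolysis genes Eno1 (3.65) and Pfkp (2.70, with probes from -2.66) were among those above Car9. The list had 10 of 32 genes higher and 2 lower there, beside 14.7% and 28% of all genes. With spike-in scaling 31 were higher and 0 lower, beside 15341 and 254 of 19506 genes. Other genes of the list that were higher were Bhlhe40, a transcriptional repressor (2.99 after normal and 1.63 after vasectomized mating), and Ndrg1, a stress-responsive gene (1.78 and 2.61 in the same order).

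Of the subunits and regulators of HIF, none of 8 differed by 2-fold after normal mating, with Hif1a, the alpha subunit stabilised in hypoxia, at -0.95 and Epas1, its relative, at -0.74. With spike-in scaling 3 of the 8 were at least 2-fold lower. After vasectomized mating 1 was higher and 2 lower, or 0 and 7 with spike-in scaling. Vhl, which targets HIF for degradation, was at 2.17. The partner subunit Arnt2 was at -3.91 by its only probe, with a dim signal of 6.82 in vasectomized-mated against 305 in not mated females. Hif1an, an inhibitor of HIF, was at -1.60 by its brightest probe and at 0.31 by another. In that comparison 25.8% of all genes were higher and 16.5% lower, and with spike-in scaling 16367 of 18685 were lower.

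**Figure D4:**
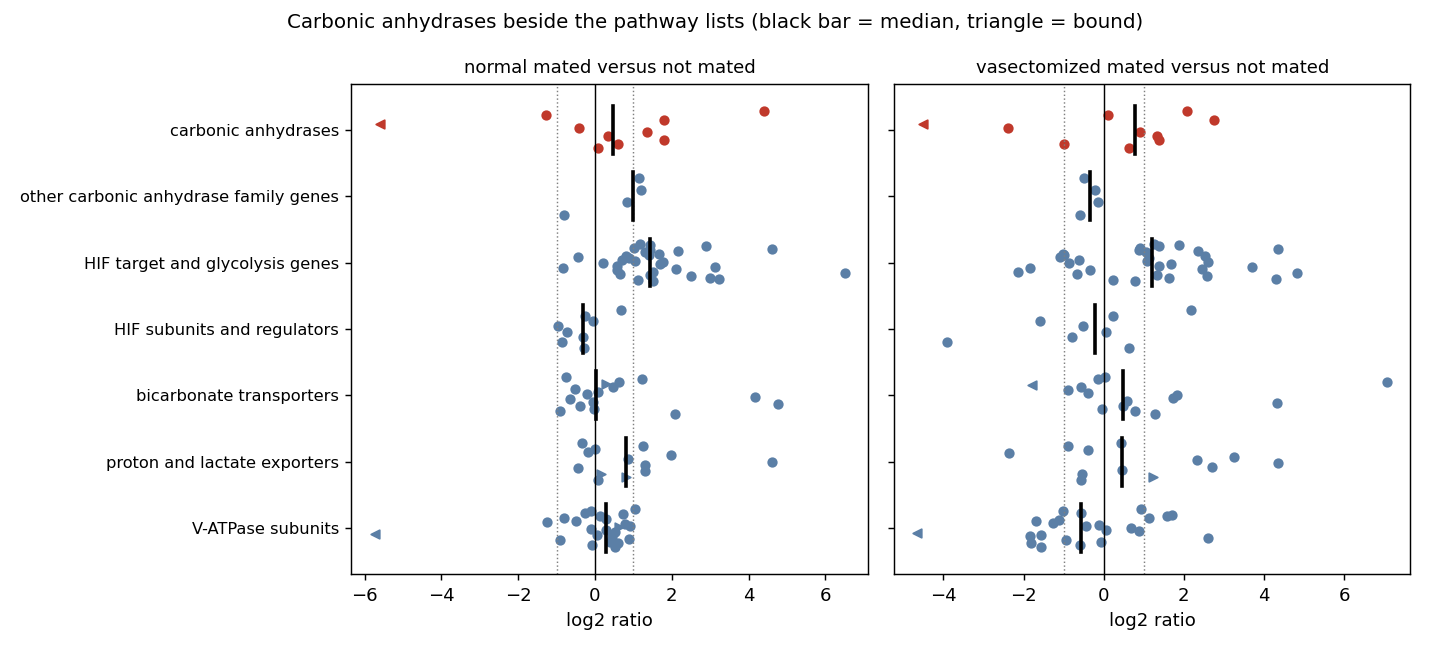
Log2 ratios (x axis) of the 10 carbonic anhydrases in red and of the genes of 6 pathway lists in blue, after normal and after vasectomized mating, each against not mated females. Black bars are medians, triangles bounds and dotted lines 2-fold. The HIF target list lies furthest to the right in both panels, with medians of 1.43 and 1.20.

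Carbonic anhydrases work with transporters that carry bicarbonate. After normal mating 4 of 16 such transporters passed 2-fold higher and 0 lower (median 0.02), or 3 and 3 with spike-in scaling. Besides the anion exchangers Slc26a4 (4.77) and Slc26a9 these were Cftr, the chloride and bicarbonate channel (2.08), and Slc4a8, a sodium-driven exchanger (1.23). After vasectomized mating 5 of 15 were higher and 1 lower (median 0.47), or 2 higher and 11 lower with spike-in scaling. Slc4a7, a sodium bicarbonate cotransporter, was at 7.07 there and at 0.63 after normal mating, by its only probe. Slc26a4 was at 4.33 and Slc26a7, a further anion exchanger, at 1.73. Slc4a4, another sodium bicarbonate cotransporter, was lower by a bound of -1.79, with its probes from -1.79 to 0.75. Beside these counts, 9.83% of all genes were higher and 13.2% lower after normal mating, and 25.8% and 16.5% after vasectomized mating. With spike-in scaling 16367 of 18685 genes were lower after vasectomized mating.

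The other product of the reaction, the proton, leaves cells through exchangers, lactate carriers and pumps. After normal mating 5 of 13 proton and lactate exporters passed 2-fold higher and 0 lower (median 0.82), or 2 and 0 with spike-in scaling. They were the lactate carriers Slc16a3, Slc16a7 (1.97) and Slc16a1 (1.30), Bsg, a chaperone of some lactate carriers (1.29), and the scaffold protein Slc9a3r1 (1.24). After vasectomized mating 5 of 12 were higher and 1 lower, or 1 higher and 7 lower with spike-in scaling. Slc16a7 was at 3.24, Slc16a1 at 2.71 with probes from -0.09 to 2.76, and Slc16a4, a related carrier, at 2.34. Of all genes, 9.83% were higher and 13.2% lower after normal mating, and 25.8% and 16.5% after vasectomized mating. With spike-in scaling 16367 of 18685 genes were lower after vasectomized mating.

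Most subunits of the vacuolar proton pump stayed within 2-fold after normal mating, 21 of 24 compared, with 1 higher and 2 lower (median 0.29), or 0 and 4 with spike-in scaling. Atp6v0d2, a subunit of specialised proton-secreting cells, gave the lowest value of the list. Like Car4, it was detected in not mated females alone, with bounds of -5.73 after normal mating and -4.65 after vasectomized mating. Atp6v1c2, another tissue-restricted subunit, was at -1.26 after each mating, and Tcirg1, the subunit best known from osteoclasts, was at 1.03 after normal mating. After vasectomized mating 4 of 23 subunits were higher and 9 lower (median -0.57), beside 25.8% and 16.5% of all genes. Atp6v0b was at 2.61 and Atp6v0c at -1.84, both parts of the membrane sector. With spike-in scaling 0 were higher and 21 lower, beside 233 and 16367 of 18685 genes. The shares of all genes after normal mating were 9.83% higher and 13.2% lower.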

How the data were processed

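Total RNA of 3 pools of 10 females was labelled with Cy3 and hybridised to 1 Agilent array each, per the labels. The deposited intensity column used is the signal that Agilent Feature Extraction corrected within each array; per the file headers it was not normalized across arrays, while version 9.5.3 is named in the submitters' processing notes and version 10.5.1.1 in the file headers. The headers of all arrays give the same scan time, so 1 scan holds every group. Probe positions use mm7, per the file headers. From the deposited intensities, log2 levels were taken relative to the 75th percentile over the non-control spots, without spots flagged as outliers (R 4.3.3, limma 3.58.1, version 1.17.8 of data.table; Python 3.11.15, pandas 2.3.3, numpy 2.4.6, matplotlib 3.10.9). Normexp used an offset of 50. Of 41174 probes, those with a RefSeq accession, symbol or unique synonym took the current symbol. Genes named from each list were up to 5 with the largest absolute ratio in each comparison with the not mated array, besides all members and the nearest patterns; single marker genes were chosen after their values were seen, and a few list genes are not reported here. The ratio and counting steps were tested on simulated data. The members and lists were chosen with earlier results of these data known. With 1 array per group, their number limits the precision, and no test between groups was possible.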

Additional observations from a re-analysis of the deposited data

Results flagged for a closer look

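No member was at least 2-fold higher after one mating and at least 2-fold lower after the other. Among the pathway genes, the enolase Eno1 had log2 ratios of 1.52 in normal-mated and -2.13 in vasectomized-mated females, each against not mated females, by its single probe. The phosphofructokinase Pfkp had 1.68 in normal-mated and -1.01 in vasectomized-mated females, although its probes ran from -1.01 to 2.54 in vasectomized-mated females. These opposite readings share the not mated array, rest on 1 array per group, and the difference between them was not tested.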

How the results depend on the processing

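The 9 planned settings and 1 chosen after seeing the data, scaling to the spike-in probes, were compared with the main one. Under planned settings 44 counts of members stayed within 1.5 times the main count and 10 did not. For normal mated versus not mated, 4 higher and 2 lower became 1 lower with normexp correction and when both arrays had to be above background, and 0 higher and 1 lower with the second brightest probe, which only 3 members have. For vasectomized mated versus not mated, 4 higher and 2 lower became 1 lower with both arrays above background, 0 higher and 1 lower with the second probe, and 0 higher and 8 lower with spike-in scaling. For normal versus vasectomized mated, 3 higher and 1 lower became 2 lower without a filter on dim probes, 1 higher and 0 lower with the second probe, and 8 higher and 0 lower with spike-in scaling. The second probe and the filter on both arrays leave fewer genes to compare; elsewhere the cause was not tested. Under planned settings 9 of 10 members kept 1 sign in normal mated versus not mated, all but Car3, as did 10 of 10 and 9 of 9 in the other comparisons. Spike-in scaling turned Car9 to -0.57, Car13 to -1.26 and Car14 to -1.29 in vasectomized mated versus not mated, and Car8 to 0.78 in normal versus vasectomized mated; it moved the median of all genes to -0.53, -2.52 and 1.89 in the 3 comparisons. Among all genes past 2-fold, the higher ones were 42.7% in normal mated versus not mated, 59.5% with normexp, 57.3% with median scaling and 17.8% with spike-ins. They were 61% in vasectomized mated versus not mated, 77% with normexp, 40.4% with second probes and 1.4% with spike-ins, and 34.5%, 24.8%, 52.6% and 98.4% in normal versus vasectomized mated. No paired analysis was possible because each group has 1 array, and no replicate could be left out.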
